A study of Mus musculus with 6 samples.

Results

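The globin genes of the mouse were followed in RNA of whole spleen from 3 Was knockout mice and 3 wild-type mice. The genes were taken by symbol from the deposited gene table. Of the 8 symbols asked for, 7 had a row among its 26452 genes, and all 7 were tested. They are the adult alpha globins Hba-a1 and Hba-a2, the adult beta globins Hbb-bs and Hbb-bt, the embryonic alpha-like globin Hba-x, and the embryonic beta-like globins Hbb-y and Hbb-bh1. The alpha globin chaperone Ahsp was not analysed here. The knockout group is labelled Was -/- (129S6/SvEvTac-Wastm1Sbs/J), and the wild-type group is 129S6/SvEvTac. Both groups were male, 10 weeks old and bought from the same supplier, and no treatment is named for either. Each library is 1 animal. The knockout libraries are KO451, KO452 and KO457, and the libraries of the wild type (WT) are WT453, WT454 and WT455. Was encodes an activator of actin assembly in blood cells and is altered in every cell of the knockout, not in 1 lineage. The design asks how the knockout spleen transcriptome differs from that of wild type.

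Haemoglobin carries oxygen in red cells and is built from paired alpha-type and beta-type globin chains, each holding a heme group. The chains are encoded by separate gene clusters, one for alpha and one for beta, in which embryonic genes are used first and adult genes later. Their transcripts build up in maturing erythroblasts and stay in reticulocytes after the nucleus is lost. The mouse spleen, unlike the adult human spleen, makes red cells throughout life, and it also clears old ones in its red pulp, so whole spleen holds both globin-making precursors and blood. Globin RNA in a bulk sample can differ because there are more such cells or more RNA in each, and these cannot be told apart here.

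The alpha genes lie on the plus strand of chromosome 11 in GRCm38, with Hba-x at 32276400 to 32278116, Hba-a1 at 32283511 to 32284465 and Hba-a2 at 32296489 to 32297298. The beta genes lie on the minus strand of chromosome 7, with Hbb-y at 103851749 to 103853216, Hbb-bh1 at 103841637 to 103843164, Hbb-bs at 103826534 to 103828096 and Hbb-bt at 103812524 to 103813996. All 7 are protein-coding genes whose main transcript has 3 exons, and no other gene model of the GENCODE annotation overlaps any of them. The adult copies within each class are nearly alike. The coding sequences of Hba-a1 and Hba-a2 differ at 1 base of 429 (C381T, the Hba-a1 base first, counted from 1 at the start codon), and those of Hbb-bs and Hbb-bt at 1 base of 444 (C417T, the Hbb-bs base first). The stretches around these bases are shown because they are all that separates the copies within the coding sequence, with the differing base in capitals.
Hba-a1: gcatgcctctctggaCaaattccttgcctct
Hba-a2: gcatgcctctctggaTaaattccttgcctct
Hbb-bs: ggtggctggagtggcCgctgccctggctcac
Hbb-bt: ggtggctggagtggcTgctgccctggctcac
Of all 100-base windows of the Hba-a1 transcript, 56.5% occur unchanged in the Hba-a2 transcript, and 74.5% of those of Hba-a2 occur in Hba-a1. For Hbb-bs and Hbb-bt the shares are 62.6% and 54.8%. How reads that match both copies were counted is not given in the sources used here, so the split within each pair is uncertain and sums over a pair are firmer. By contrast, no 50-base window of the embryonic Hba-x, Hbb-y or Hbb-bh1 transcripts was shared with Hba-a1 for the alpha gene or with Hbb-bs for the beta genes. GRCm38 is a C57BL/6J genome and the mice were 129S6/SvEvTac, and beta globin haplotypes are known to differ among inbred strains, so the reference copies need not match those of the mice.

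Promoter sequence was available for 6 of the 7 genes (RefSeq, GRCm38.p6), and the 125 bases before the transcription start are shown because the adult genes share a pattern over the 6 libraries, with Hba-x and Hbb-y, which do not, set beside them. Capitals mark matches, on either strand, to CACCC (the core bound by KLF factors), to its longer form CCNCNCCC, and to CCAAT. They also mark matches to AGATAA, the usual word of GATA factors, to its variant TGATAA, and to the TATA box as TATAAA, or in a second spelling as TATAAG, or in a further one as CATAAA. The longer form can overlap CACCC.
Hba-a1: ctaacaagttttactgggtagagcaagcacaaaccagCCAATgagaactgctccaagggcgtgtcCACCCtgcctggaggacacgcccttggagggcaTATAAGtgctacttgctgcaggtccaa
Hbb-bs: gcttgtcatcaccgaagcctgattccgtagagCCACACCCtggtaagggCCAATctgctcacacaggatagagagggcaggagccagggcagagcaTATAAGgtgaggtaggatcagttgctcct
Hbb-bt: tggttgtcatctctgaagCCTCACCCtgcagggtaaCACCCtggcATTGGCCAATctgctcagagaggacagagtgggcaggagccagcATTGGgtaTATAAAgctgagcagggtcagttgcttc
Hba-x: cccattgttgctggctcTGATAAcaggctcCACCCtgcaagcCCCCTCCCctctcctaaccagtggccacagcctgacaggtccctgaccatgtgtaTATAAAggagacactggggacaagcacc
Hbb-y: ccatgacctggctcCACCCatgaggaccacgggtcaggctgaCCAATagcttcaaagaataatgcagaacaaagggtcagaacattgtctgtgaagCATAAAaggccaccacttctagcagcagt
Their places are chr11:32283547-32283671 for Hba-a1 and chr11:32276475-32276599 for Hba-x, both on the plus strand, and chr7:103827929-103828053 for Hbb-bs, chr7:103813924-103814048 for Hbb-bt and chr7:103853208-103853332 for Hbb-y, all on the minus strand. The Hba-a2 promoter was identical to that of Hba-a1 over the 297 bases that both 300-base windows cover, from 250 before to 50 after the start. Hbb-bs and Hbb-bt matched at 56.2% of 299 bases without gaps, far less than in their coding sequences. All 6 promoters held CACCC and a TATA word in the 125 bases shown, where CACCC occurs in 32.7% of 32851 promoters, TATAAA in 6.55%, TATAAG in 3.53% and CATAAA in 5.38%. The share of promoters with any of these TATA spellings was not counted. CCAAT, found in 21.9%, was present in all but Hba-x. The longer form CCNCNCCC, found in 35.2%, was present in Hbb-bs, Hbb-bt and Hba-x. TGATAA, found in 3.69%, was present in Hba-x, 108 bases before the start. Outside the stretch shown, Hba-a1 had it 183, Hba-a2 186 and, on the other strand, Hbb-y 162 bases before the start, where 9.05% of the 300-base windows hold it. AGATAA, found in 11.2% of the 300-base windows, was matched in Hbb-bs, 210 bases before the start. A match is a description of the letters and not a bound site.

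Reads assigned to genes totalled between 33352673 and 35001679 in knockout and between 30661759 and 38402758 in WT libraries, so a count of 0 allows a level of up to 3 reads, or between 0.0781 and 0.0978 CPM (counts per 1000000 reads assigned to genes). Such limits cover counting error only. Was itself was at 13.7, 12.2 and 11.3 CPM in KO451, KO452 and KO457, against 125, 209 and 197 CPM in WT453, WT454 and WT455, as the labels call for. All 8 B cell and all 8 T cell markers had reads in every library, which any tissue holding lymphocytes could show. WT453 stood apart from the other libraries, with a median correlation of 0.915 with the others across genes against 0.948 or more for each of the rest, mitochondrial reads of 1.48% against between 5.89% and 8.46%, and summed neutrophil markers of 91793 CPM against between 5154 and 56800 CPM (56799.6). KO451 was the highest library for red cell genes. The adult globin results are therefore also given without these libraries, and others where that moves them most, a choice made after seeing the data.

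Adult alpha globin was higher in every knockout spleen than in every wild-type spleen. Hba-a1 stood at 20911, 7498 and 9119 CPM in KO451, KO452 and KO457, against 825, 2149 and 3568 CPM in WT453, WT454 and WT455. The groups did not overlap, with KO451 highest and WT453 lowest. Its log2 fold change, on the scale of log2(normalized count + 1), was 2.75 ± 0.61 (SE, n = 3 each, 95% interval 1.31 to 4.20), and it did not pass the test over all genes (limma, Benjamini-Hochberg adjusted p = 0.344, unadjusted p = 0.00262). Hba-a2 stood at 16350.0, 5755 and 6929 CPM in the knockout libraries, against 516, 1656 and 2742 CPM in the WT libraries. It repeated the order of the libraries seen in Hba-a1, with KO451 highest and WT453 lowest. Its log2 fold change was 2.85 ± 0.67 (SE, adjusted p = 0.344, limma).

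Adult beta globin had larger fitted differences than adult alpha globin, within their errors. Hbb-bs stood at 23238, 8444 and 9001 CPM in KO451, KO452 and KO457, against 486, 2211 and 3303 CPM in WT453, WT454 and WT455. In KO451 it was the gene with the most reads of all, and it ranked 4 in KO452 and 8 in KO457, against 259, 34 and 22 in the WT libraries. Its log2 fold change was 3.13 ± 0.75 (SE, 95% interval 1.38 to 4.88, adjusted p = 0.344, limma). Hbb-bt stood at 13085, 3921 and 5083 CPM in the knockout libraries, against 215, 1177 and 1878 CPM in the WT libraries, with a log2 fold change of 3.18 ± 0.83 (SE, adjusted p = 0.344, limma). Mean CPM was 6.78-fold higher in knockout spleens for Hbb-bs and 6.76-fold for Hbb-bt, against 5.74-fold for Hba-a1 and 5.91-fold for Hba-a2.

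**Figure D1:**
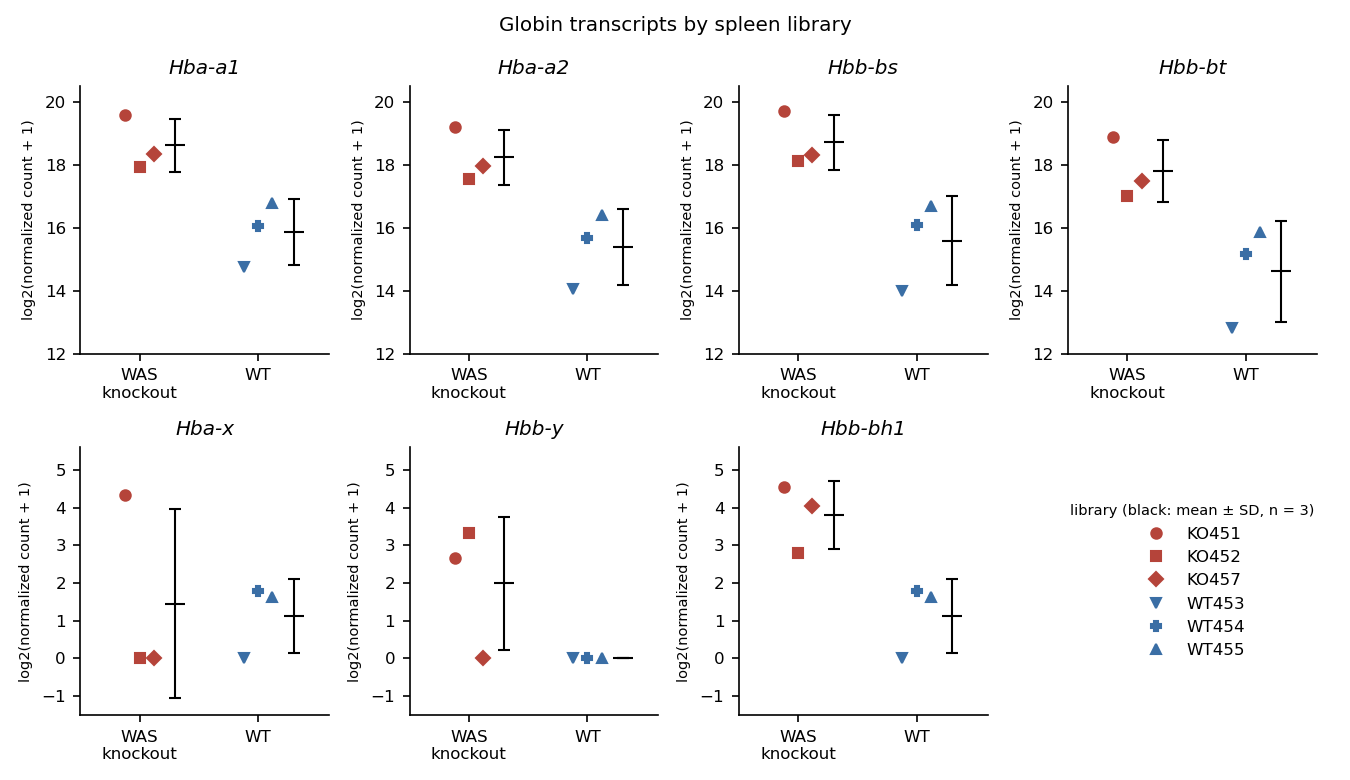
Each panel plots 1 globin gene as log2(normalized count + 1) in the 6 libraries, with WAS knockout left of WT, and the black bars give the mean ± SD (n = 3 each). In the 4 adult genes all knockout libraries lie above all WT libraries with KO451 highest and WT453 lowest. Hba-x and Hbb-y overlap between the groups, at 0 in several libraries and up to 4.34 (Hba-x in KO451).

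Of the 7 globin genes, 0 passed the limma test over all genes in either direction, where 0% of the 22071 genes tested were called higher and 0.00906% (2 genes) were called in either direction. At an unadjusted p under 0.05, 5 of the 7 were higher and 0 lower, against 5.5% of all genes tested called higher, and limma's voom on the recovered reads also gave 5. The groups did not overlap, with knockout higher, in 5 of the 7, against 9.54% of all genes tested, and with knockout lower in 0, against 9.94%. All 7 had a fold change above 0, against 47.7% of all genes tested. In the authors' deposited table, whose exact test is not stated, 4 of the 7 had an FDR under 0.05 and were higher, against 2.14% of its genes, and 0 were lower, against 1.44%. Those are the adult genes, with FDRs of 0.00211 for Hba-a1, 0.00224 for Hba-a2, 0.0031 for Hbb-bs and 0.00355 for Hbb-bt in the authors' deposited table. The genes share cells and libraries, so these counts are not independent results.

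The difference between groups stands beside a spread of similar kind within them. Among knockout libraries the highest adult globin value was 3.06-fold (Hbb-bs) to 3.71-fold (Hbb-bt) above the lowest in normalized counts, and among WT libraries 4.15-fold (Hba-a1) to 8.38-fold (Hbb-bt). Without WT453 the log2 fold changes were 2.19 for Hba-a1, 2.20 for Hba-a2, 2.33 for Hbb-bs and 2.27 for Hbb-bt. Without KO451 they were 2.28, 2.37, 2.63 and 2.63 in the same order of genes. Without both they were 1.72, 1.71, 1.83 and 1.73, each with an adjusted p of 0.241 (limma). The differences were smaller without those 2 libraries and stayed above 0. Counted at an unadjusted p under 0.05, 5 of the 7 globin genes were higher without WT453, against 9.7% of all genes tested there, 5 without KO451, against 3.34%, and 4 without both, against 9.02%.

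Per kilobase of exon, which allows levels of different genes to be compared, Hbb-bt was the lowest of the 4 adult genes in all 6 libraries. In RPKM, the CPM divided by exon length in kilobases, Hbb-bs averaged 17658 ± 10919 in knockout and 2604 ± 1849 in WT libraries (SD, n = 3 each). Hba-a1 averaged 15406 ± 9017 RPKM in knockout and 2685 ± 1689 RPKM in WT libraries. Hba-a2 averaged 14509.7 ± 8708 RPKM in knockout and 2456 ± 1669 RPKM in WT libraries. Hbb-bt averaged 10474 ± 7097 RPKM in knockout and 1550.1 ± 1188 RPKM in WT libraries. Within libraries, Hba-a1 was above Hba-a2 and Hba-a2 above Hbb-bt in all 6. Hbb-bs was above Hba-a1 in all 3 knockout libraries and in WT454, and below it in WT453 and WT455. In WT455 the values were close, at 4300 RPKM for Hbb-bs and 4394 RPKM for Hba-a1. Their order there rests on the exon lengths used. So does their order in KO457, where Hbb-bs was at 11720 RPKM and Hba-a1 at 11230 RPKM, but at 9001 and 9119 CPM. The exon lengths behind these values are 812 bases for Hba-a1, 667 for Hba-a2, 768 for Hbb-bs and 703 for Hbb-bt and cover the exons of every annotated transcript of a gene.

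All 7 globin genes together took 7.36% of reads in KO451, 2.56% in KO452 and 3.01% in KO457, against 0.204% in WT453, 0.719% in WT454 and 1.15% in WT455. The groups did not overlap. The difference had p = 0.1 in a two-sided exact permutation test, the smallest that 3 against 3 allows, and 0.5 after Benjamini-Hochberg adjustment over the 5 ratios and shares of globin reads compared. The mean difference was 3.62 percentage points, 2.10 without KO451, 3.38 without WT453 and 1.85 without both.

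The balance of alpha to beta was close in 5 libraries and different in 1. Alpha reads per beta read were 1.03, 1.07 and 1.14 in KO451, KO452 and KO457, against 1.91 in WT453, 1.12 in WT454 and 1.22 in WT455, and dividing by exon length left these ratios between 1.03 and 1.91. On the log2 scale the ratio was 0.11 ± 0.08 in knockout and 0.46 ± 0.41 in WT libraries (SD, n = 3 each). The groups overlapped (two-sided exact permutation, p = 0.2, adjusted p = 0.5). The difference was -0.35, or -0.12 without WT453. In WT453, 43212 alpha reads stood beside 22601 beta reads.

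The split between copies was steady in the same 5 libraries for alpha. Hba-a1 made up 56.1%, 56.6% and 56.8% of adult alpha reads in KO451, KO452 and KO457, against 61.5% in WT453, 56.5% in WT454 and 56.5% in WT455. Within the 5 libraries other than WT453 this share moved by less than 1 percentage point while the level of alpha globin moved severalfold. How reads that match both copies were counted is not given, so a steady share need not be a trait of the genes. The group means were 56.5% ± 0.36 in knockout and 58.2% ± 2.90 in WT libraries (SD, n = 3 each, exact permutation p = 0.6, adjusted p = 0.7). Hbb-bt made up 36.0%, 31.7% and 36.1% of adult beta reads in KO451, KO452 and KO457, against 30.6% in WT453, 34.7% in WT454 and 36.2% in WT455. The beta split thus varied more than the alpha split in the 5 libraries other than WT453. Over the WT libraries with WT453 kept, the SD was 2.90 percentage points for both splits. The beta split overlapped between groups (exact permutation p = 0.7, adjusted p = 0.7).

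**Figure D2:**
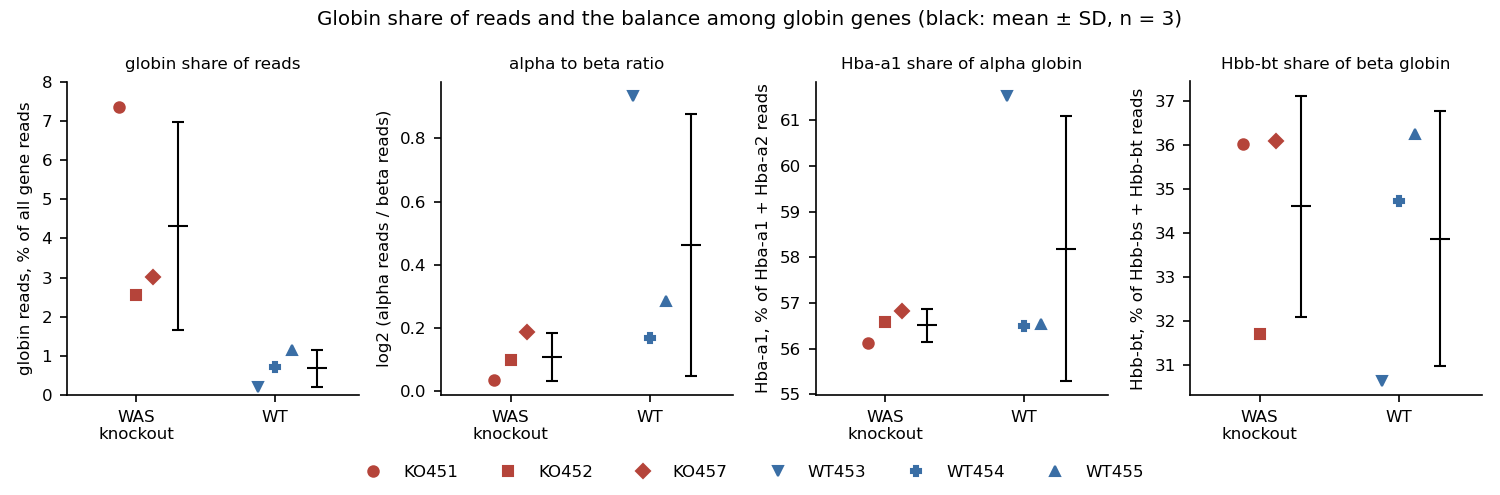
The panels plot, by library and with the group mean ± SD (n = 3 each), the share of reads from the 7 globin genes in percent, the log2 ratio of adult alpha to adult beta reads, Hba-a1 in percent of adult alpha reads and Hbb-bt in percent of adult beta reads. WT453 stands apart in the ratio, at 0.94, and in the Hba-a1 share, at 61.5%, while the other 5 libraries lie close together.

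The embryonic genes were at a few reads per library, so their values are counts more than levels. Hbb-bh1 had 21, 6 and 15 reads in KO451, KO452 and KO457, against 0, 3 and 2 reads in WT453, WT454 and WT455. It was higher in all knockout libraries, with a log2 fold change of 2.67 ± 0.80 (SE, adjusted p = 0.355, limma), and 42 reads in knockout against 5 reads in wild type give 8.27-fold by pooled share. Hbb-y had 5, 9 and 0 reads in the knockout libraries, against 0 reads in all 3 WT libraries. By pooled share, the 14 reads of Hbb-y in knockout were 4.59-fold above a limit of 3 reads over the wild-type group. That ratio leaves out the counting error of the knockout reads and the spread among animals. KO457 had none, and the groups overlap at 0. Hba-x had 18 reads in KO451 and 0 reads in KO452 and KO457, against 0, 3 and 2 reads in the WT libraries. The Hba-x excess is thus 1 library, and its log2 fold change of 0.31 ± 1.31 (SE, adjusted p = 0.957, limma) turned to -0.26 without WT453, and to -0.51 and -1.58 with pseudocounts of 0.1 and 0.01.

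Relative to all globin reads, embryonic transcripts showed no difference detectable at this depth. They made up 17.3, 17.6 and 14.2 ppm of globin reads in KO451, KO452 and KO457, against 0, 21.7 and 11.4 ppm in WT453, WT454 and WT455 (exact permutation p = 0.6, adjusted p = 0.7). These shares rest on 44, 15 and 15 embryonic reads in knockout and on 0, 6 and 4 in WT libraries.

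The theta globins, alpha-like genes of the same cluster that lie beside the adult copies, were likewise highest in KO451 and lowest in WT453, at far lower levels than the adult genes. Hbq1b stood at 23.6, 7.38 and 7.23 CPM in KO451, KO452 and KO457, against 0.0931, 1.35 and 3.55 CPM in WT453, WT454 and WT455. Its log2 fold change was 3.82 ± 1.18 (SE, adjusted p = 0.355, limma), or 2.45 without WT453, where it had 3 reads. Hbq1a stood at 3.47, 0.810 and 1.20 CPM in the knockout libraries, against 0, 0.729 and 0.783 CPM in the WT libraries, with a log2 fold change of 2.68 ± 1.32 (SE, adjusted p = 0.504, limma), or 1.13 without WT453 and 0.51 without KO451 and WT453. Both had groups that did not overlap, as had 9.54% of all genes tested with knockout higher. Of the 11 symbols named as other globins, 5 were measured. Those from other tissues, Cygb, Ngb and Adgb, were below 1 CPM on average in both groups, with log2 fold changes of 0.78, -0.32 and 0.09.

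Of 8 genes listed as neighbours of alpha globin genes, 5 lie on chromosome 11 beside the mouse cluster, and Polr3k, Luc7l and Fam234a lie on other chromosomes in mouse. Over all 8 the median log2 fold change was 0.17, against -0.03 over all genes tested, and 0 passed (limma). Nprl3, whose introns hold enhancers of the alpha genes in mouse, was at 21.8, 13.2 and 13.9 CPM in KO451, KO452 and KO457, against 24.7, 13.8 and 13.9 CPM in WT453, WT454 and WT455, with a log2 fold change of 0.06 ± 0.36 (SE, adjusted p = 0.969, limma). Nprl3 overlaps Mpg, whose log2 fold change was 0.34, and reads of the 2 genes may not be told apart where strand was not used. Snrnp25, a subunit of the minor spliceosome, had one of 0.80 ± 0.23 (SE, adjusted p = 0.354, limma) and Sh3pxd2b, an adaptor of the actin-rich podosomes, one of 0.79 ± 0.29 (SE, adjusted p = 0.403, limma). These 2 of the 5 were higher in every knockout library, against 9.54% of all genes tested, and Rhbdf1 was at -0.94 ± 0.48 (SE, adjusted p = 0.515, limma) with overlapping groups.

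Within the globins, likeness over the 6 libraries was measured as the root mean square difference of log2 values, each gene centred on its own mean. It was smallest within each adult pair, at 0.11 for Hba-a1 with Hba-a2 and 0.15 for Hbb-bs with Hbb-bt. The copies of a pair share much of their sequence, and how shared reads were counted is not given. How far the likeness within a pair comes from the counting was not tested. Across classes it was between 0.21 (Hba-a2 with Hbb-bs) and 0.42 (Hba-a1 with Hbb-bt). Hbb-bh1 lay between 0.38 and 0.56 from the adult genes, and Hba-x and Hbb-y were farther still, up to 1.75 for Hba-x with Hbb-bt.

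The 10 genes most like the mean adult globin profile, of 10605 compared, were Garem1 at 0.23, March8 at 0.25, Alas2 at 0.27, Sowaha at 0.27, Trim58 at 0.31, Gstt1 at 0.32, Tmcc2 at 0.32, Bpgm at 0.33, Sptb at 0.37 and Rsad2 at 0.38. Several are known from red cells. Alas2 is the erythroid enzyme that starts heme synthesis, Bpgm makes the phosphate that lowers oxygen binding by haemoglobin, Sptb is the beta spectrin of the membrane skeleton, and Trim58 is a ubiquitin ligase of late erythroblasts in mouse. March8 is a ubiquitin ligase of membrane proteins, Gstt1 a glutathione transferase and Rsad2 an antiviral protein induced by interferon. Alas2 averaged 802 ± 619 CPM in knockout and 125 ± 99.2 CPM in WT libraries (SD, n = 3 each), with a log2 fold change of 3.11 ± 0.89 (SE, adjusted p = 0.349, limma). Rsad2 averaged 214 ± 130 CPM in knockout and 44.6 ± 24.1 CPM in WT libraries (SD, n = 3 each). The log2 fold changes of the 10 ranged from 2.36 (Bpgm) to 3.32 (Tmcc2), and none passed the test over all genes. Since the genes were chosen for likeness to a profile higher in knockout, the sign and rough size of these changes follow from the choice. With 6 libraries, a gene that is high in KO451 and low in WT453 by similar amounts tends to be close by this measure.

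**Figure D3:**
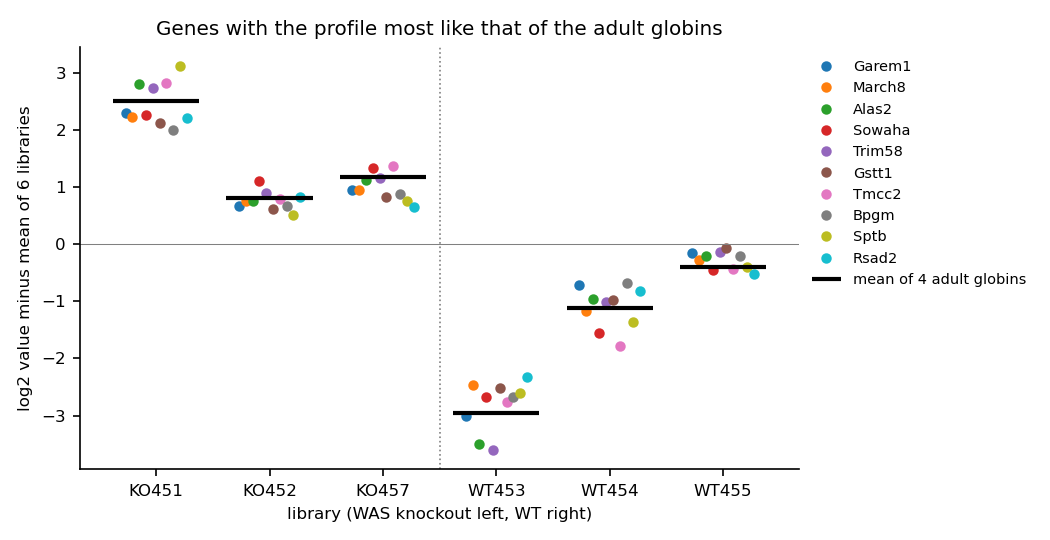
The log2 value of each of the 10 genes most like the adult globins, less its mean over the 6 libraries, is plotted by library with WAS knockout left and WT right, and black lines mark the mean of the 4 adult globin genes. The genes follow the black lines, which are highest in KO451 and lowest, at -2.95, in WT453.

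Of 15 regulators that help to switch globin genes on, 10 had a fold change above 0 and 5 below, with a median of 0.24, and 0 passed (limma). At an unadjusted p under 0.05, 5 were higher, against 5.5% of all genes tested, and 0 lower, against 5.46%. The lowest log2 fold change was that of Nfe2, at -0.75 ± 0.70 (SE, adjusted p = 0.722, limma) with overlapping groups, or -0.01 without WT453. Klf1, the erythroid factor that binds CACCC motifs, was at 252, 91.8 and 102 CPM in KO451, KO452 and KO457, against 12.9, 19.6 and 38.4 CPM in WT453, WT454 and WT455, with a log2 fold change of 2.78 ± 0.52 (SE, adjusted p = 0.344, limma). Tal1 (2.52 ± 0.59 SE), Gata1 (1.79 ± 0.43 SE) and its partner Zfpm1 (1.63 ± 0.49 SE) also had higher log2 values in every knockout library. So had Ssbp3 and Ssbp2, 6 of the 15 with Klf1, against 9.54% of all genes tested. For Ssbp2 (0.44 ± 0.30 SE) the groups overlapped in CPM, at 14.7 in KO452 and 15.3 in WT454. Ldb1 (-0.60 ± 0.33 SE) and Med1 (-0.42 ± 0.22 SE) had lower values in every knockout library, 2 of the 15, against 9.94% of all genes tested. Without WT453, where Ldb1 stood at 329 CPM against 166 and 154 CPM in WT454 and WT455, these were -0.23 for Ldb1 and -0.59 for Med1. In Gata1 and Tal1 the WT libraries stood in another order than in the globins. Gata1 stood at 33.0 CPM in WT453 and 20.1 CPM in WT454, and Tal1 at 28.1 and 14.8 CPM, whereas all 4 adult globins were lower in WT453 than in WT454.

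Of 19 factors named as repressors of globin genes, most known for silencing embryonic or fetal globin, 17 were measured, of which 12 had a fold change above 0 and 5 below, with a median of 0.25, and 0 passed (limma). Sox6, which silences Hbb-y in mouse, was at 150.1, 29.5 and 32.9 CPM in KO451, KO452 and KO457, against 7.88, 8.57 and 15.7 CPM in WT453, WT454 and WT455 (log2 fold change 2.51 ± 0.66 SE, adjusted p = 0.344, limma, or 1.73 without KO451). Bcl11a, which B cells also express, was at 58.9, 78.1 and 54.8 CPM in the knockout libraries, against 59.6, 116 and 108 CPM in the WT libraries (-0.38 ± 0.28 SE, adjusted p = 0.647, limma). Dnmt1, the maintenance DNA methyltransferase, had a log2 fold change of 0.72 ± 0.28 (SE, adjusted p = 0.426, limma).

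Enzymes of heme synthesis, which supply the group that each globin chain holds, had a median log2 fold change of 1.71, with 8 of 9 above 0, 7 higher at an unadjusted p under 0.05, against 5.5% of all genes tested, and 0 past the test over all genes (limma). The median was 1.22 without KO451. Alas1, the form of the first enzyme used in all tissues, had a log2 fold change of 0.00 ± 0.68 (SE), which was 0.76 without WT453, where it stood at 168 CPM against 30.8 and 42.3 CPM in WT454 and WT455. Alas2, the erythroid form, had one of 3.11, or 2.14 without WT453. In WT453 Alas2 stood at 21.7 CPM and in WT454 at 133 CPM, and 4 of the 9 enzymes were higher in WT453 than in WT454.

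Of 12 genes that keep haemoglobin and its chains in balance, 11 had a fold change above 0, with a median of 0.78, 7 were higher at an unadjusted p under 0.05, against 5.5% of all genes tested, and 0 passed (limma). Prdx2, a peroxidase abundant in red cells, had a log2 fold change of 1.85 ± 0.44 (SE, adjusted p = 0.344). Ube2o, a ubiquitin enzyme that in mouse clears unpaired alpha globin, stood at 143, 86.4 and 79.9 CPM in KO451, KO452 and KO457, against 16.8, 43.5 and 64.3 CPM in WT453, WT454 and WT455 (1.61 ± 0.49 SE, adjusted p = 0.355, limma, or 1.08 without WT453). It was lowest in WT453, as were the adult globins. Eif2ak1, the heme-regulated kinase that slows globin synthesis when heme is short, had one of 0.76 ± 0.33 (SE, adjusted p = 0.466, limma).

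Of 9 genes of haemoglobin and heme clearance, 8 had a fold change above 0, with a median of 0.60 and 0 past the test (limma). Blvrb, a biliverdin reductase also abundant in red cells, had a log2 fold change of 1.87 ± 0.35 (SE, adjusted p = 0.344). Hmox1, which opens the heme ring, was at 780 CPM (780.2), 2692 and 1335 CPM in KO451, KO452 and KO457, against 382, 1030.2 and 1265 CPM in WT453, WT454 and WT455, with overlapping groups (0.98 ± 0.55 SE, adjusted p = 0.535, limma). Hp, which binds free haemoglobin and is also stored in neutrophils, was at 379, 268 and 888 CPM in the knockout libraries, against 1551, 199 and 330 CPM (329.8) in the WT libraries, in the order of the summed neutrophil markers for the highest 3 libraries.

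Markers of red cell precursors moved with the globins. All 16 were higher in every knockout library than in every wild-type library, against 9.54% of all genes tested. Their median log2 fold change was 2.57, or 1.92 without KO451 and 2.32 without WT453, beside 2.99 for the 4 adult globins, and 0 passed the test over all genes (limma). Their summed level was between 2087 and 9425 CPM in knockout and between 499 and 994 CPM in WT libraries, and none of the 16 was at 0 in any library. Total globin set against the mean of these markers on the log2 scale was 8.36 ± 0.27 in knockout and 7.96 ± 0.88 in WT libraries (SD, n = 3 each, exact permutation p = 0.7), a comparison added after seeing the data. The difference of 0.40 turned to -0.11 without WT453, where the value was 6.95 against between 8.05 and 8.55 in the other 5 libraries. Summed markers were similar in WT453 and WT454, at 499 and 527 CPM, while summed globins were at 2042 and 7192 CPM. Of the 16 markers 7 were higher in WT453 than in WT454, namely Rhag, Rhd, Kel, Ermap, Epor, Tfrc and Tspo2.

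Other cell types also differed between the libraries, and their part in the globin values was not tested. Summed red pulp macrophage markers ran from 3874 to 6541 CPM in knockout and from 903 to 3631 CPM in WT libraries, lowest in WT453, with 11 of 11 tested above 0 (median 1.27, or 0.70 without WT453) and 0 called. Summed B cell markers ran from 1372 to 2881 CPM in knockout and from 1440.1 to 4969 CPM in WT libraries (median -0.64, between -1.13 without WT453 and -0.24 without WT454, 8 of 8 below 0, 0 called), and T cell markers from 489 to 975 CPM and from 540.4 to 1531 CPM (median -0.51, between -0.96 without WT453 and -0.20 without WT454, 8 of 8 below 0, 0 called). Proliferation genes, summed, ran from 1401 to 3753 CPM in knockout and from 672 to 2176 CPM in WT libraries, where WT453 was the highest (median 1.13, between 0.70 without KO451 and 1.59 without WT453, 0 called). Markers of early progenitors had a median of 0.09, between -0.10 without WT454 and 0.31 without WT453, with Kit at 31.3 CPM in knockout and 33.0 CPM in WT libraries on average. Neutrophil markers had a median of 0.63, between -0.32 without WT454 and 1.74 without WT453, and megakaryocyte and platelet markers one of 0.84, or 0.46 without WT453, with 0 called in either list. Of the 4 pancreas markers measured, Cela1 carried nearly all reads, at 32.0 CPM or more in every knockout and 24.2 CPM or less in every WT library, and the defining enzymes Prss2, Cpa1 and Cpb1 were below 1 CPM in all libraries.

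**Figure D4:**
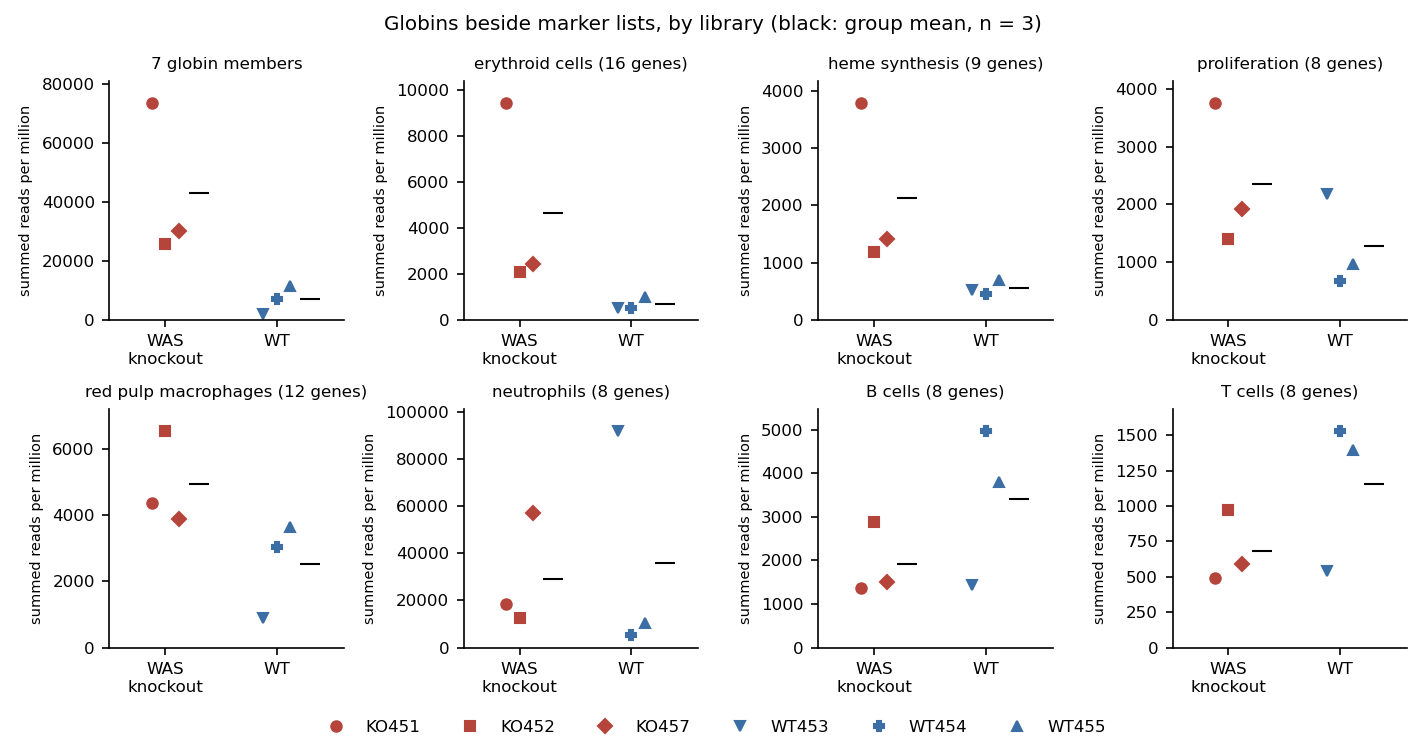
Summed CPM values are plotted by library, with the group mean in black, for the 7 globin genes and for 7 marker or pathway lists, WAS knockout left of WT. Globins, erythroid markers and heme synthesis are highest in KO451 and do not overlap between the groups, while WT453 is the highest library for neutrophils and the lowest for globins and red pulp macrophages.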

How the data were processed

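RNA of whole spleen was measured in 3 Was knockout and 3 wild-type mice. Per the submitters' processing notes, StringTie 1.3.1c, STAR 2.5.3a, FastQC 0.11.5 and DESeq were used with GRCm38, with no roles named. How reads were counted, the annotation, the read length and the strand are not stated. The single table that the authors deposited holds log2 values per library, their group means, and a comparison with its p-value, FDR and log2 difference. From the values, each deposited log2 value is log2 of a read count over a size factor, plus 1: 100% of values were whole multiples of 1 step per library (tolerance 0.001), which gave back reads.

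Limma 3.58.1 in R 4.3.3 with an intensity trend was fitted to the deposited log2 values of all genes with a mean normalized count of at least 1 (22071 of 26452), with 2 groups and no covariate, Benjamini-Hochberg adjusted at 0.05. Fold changes on this scale understate those of genes with few reads. CPM and RPKM were computed from the recovered reads, with exon lengths of GENCODE M21 (GRCm38). Single values were compared by exact permutation over libraries. The ratio of Ahsp to alpha globin was planned and is not reported here, nor are values of some list genes. The fit was tested on simulated data. Alternatives were pseudocounts of 0.1 and 0.01, other filters, scalings and limma's voom, a threshold of 0.01, and leaving out each library. Named genes were all globin members, the 10 genes of mean normalized count 100 or more with the most similar profile, and up to 4 genes per list by smallest p, of which the text gives some. Adgb, Alas1, Bcl11a, Eif2ak1, Epor, Ermap, Fam234a, Hmox1, Hp, Kel, Ldb1, Luc7l, Med1, Nfe2, Nprl3, Polr3k, Rhag, Rhd, Ssbp2, Ssbp3, Tfrc, Tspo2 and Ube2o were named outside the rule, after their values were seen. Members, gene lists and motifs were chosen with earlier results of these data known. Each p-value rests on the spread among 6 animals.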

Additional observations from a re-analysis of the deposited data

How the results depend on the processing

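In all 17 alternative fits the 4 adult globins kept fold changes above 0 (1.71 to 3.81 on the log2 scale) and did not pass (adjusted p between 0.109, in voom with sample quality weights, and 0.724). The number of globin genes called was 0 in every fit and at the threshold of 0.01, and between 4 and 6 had an unadjusted p under 0.05. Scaling moved the median of all genes by less than 0.1 on the log2 scale. No paired analysis was possible because the animal numbers are not shared between the groups.

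When each library was left out in turn, the difference (knockout less WT) in the Hbb-bt share of beta reads ran from -0.88 to 2.18 percentage points, below 0 without WT453 or KO457, that in embryonic reads from -0.18 to 10.7 ppm of globin reads, and that in globin per erythroid marker from -0.11 to 0.70. The median of the clearance list ran from 0.48 to 0.91, highest without WT455, and that of the pancreas list from 1.32 to 2.13, highest without KO457. The median of the neutrophil list was below 0 without WT454 or KO457, and that of the early progenitor list without WT454. Signs turned for genes near 0 or with few reads. Hba-x turned to -0.51 and -1.58 with pseudocounts of 0.1 and 0.01, to -0.99 with quality weights and to -1.70 without KO451 and WT453, and ran from -0.26 to 1.04 with 1 library left out, though it was not tested without KO451, where it fell under the filter. With quality weights Cygb was -0.018 and Ngb 0.68. Without both KO451 and WT453 Cygb was -0.049 and Mpg -0.038. Kit was -0.0060 with library totals that leave out haemoglobin and immunoglobulin genes. With 1 library left out, Cygb ran from -0.094 to 1.23, Ngb from -1.01 to 0.025, Kit from -0.090 to 0.23, S100a9 from -0.12 to 1.95, S100a8 from -0.17 to 1.90 and Camp from -0.36 to 2.09. The cause of these turns was not tested. The ratio of Ahsp to alpha globin and its alternatives were not run, and Hba-x, Hbb-y and Hbb-bh1 were not tested under the filter of 1 CPM. The depth limits the embryonic genes most, at 0 to 21 reads per library.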
